A study of Mus musculus with 10 samples.

Results

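The genes described here encode protein subunits of the mitochondrial respiratory chain, measured in microglia purified from 2 brain regions, midbrain and striatum, of healthy mice. Members were chosen by gene symbol alone: Nduf subunits of the A, B, C, S and V series, Sdha to Sdhd, genes starting with Uqcr, Cox4 to Cox8, and the mitochondrial mt-Nd, mt-Co, mt-Cytb and mt-Atp genes, protein coding only. The rule gave 80 members among 53715 counted genes. Of these, 67 lie on nuclear chromosomes (37 of complex I, 4 of complex II, 8 of complex III and 18 of complex IV) and 13 on the mitochondrial genome (7 of complex I, 1 of complex III, 3 of complex IV and 2 of complex V).

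The libraries came from untreated C57BL/6 mice of 3 months, which the methods describe as male and C57BL/6 J, and the cells were CD11b+ cells taken with magnetic beads, so they hold any CD11b+ cell of the brain and not microglia alone. By flow cytometry the paper found that nearly all viable separated cells met its definition of microglia, with a few infiltrated myeloid cells. Poly-A RNA was sequenced from its 3′ end. Midbrain and striatum were each represented by 2 libraries in a pilot cohort and by 2 libraries, numbered 1 and 3 after their titles, in a second cohort, and no group carried a treatment or a transgene. A further 2 libraries of the second cohort are named for one region in the title and for the other in the file name. They entered no comparison and are called unsettled. The study describes as many mice as libraries of a region in each cohort and examined both regions, but the labels do not tie a library to a mouse. Midbrain and striatum libraries that share a mouse therefore could not be matched, and the p-values measure the spread between these libraries.

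The respiratory chain passes electrons from NADH (complex I) and succinate (complex II) through complex III to oxygen at complex IV, and the proton gradient this builds drives ATP synthase, also called complex V. Most subunits are encoded in the nucleus, made in the cytosol and imported. A small core set of subunits of complexes I, III, IV and V is transcribed inside the organelle from long polycistronic precursors, so each complex except II needs both genomes. In microglia, as in other macrophages, the balance between oxidative phosphorylation and glycolysis is known to shift with activation.

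Levels are counts per 1e6 counts (CPM) scaled by the trimmed mean of M values (TMM), and every fold change is midbrain over striatum on the log2 scale, so that a positive value is a higher midbrain level. The 8 assigned libraries held 575709 to 8463782 counts, a 14.7-fold range, and the shallowest was library 3 of the second-cohort striatum. Homeostatic microglia markers were present in every library, and their summed level was 14996 to 18471 CPM in the midbrain libraries and 20772 to 27916 CPM in the striatum libraries. Markers of other immune cells differed by region. Calls of markers are those of limma with both cohorts fitted together, at an adjusted p under 0.05. Over all 14053 genes tested that called 1.06%, with 137 genes higher in the midbrain. The 8 brain border macrophage markers summed to 1419.9 to 2582 CPM in the midbrain and 305 to 805 CPM in the striatum, with 7 of 8 called higher in the midbrain, and the 9 neutrophil markers to 859 to 6226 CPM and 330.0 to 581 CPM, with 6 of 9 called higher. The 8 monocyte markers summed to 219.6 to 2722 CPM in the midbrain and 97.6 to 192 CPM in the striatum (2 called higher), and the 10 T and NK cell markers to 83.8 to 259 CPM and 10.3 to 47.5 CPM (1 of 4 tested called higher). No marker of these lists was at 0 in all 8 libraries. The part these cells had in the values below was not tested, and in bulk RNA fewer cells of a type and less RNA per cell cannot be told apart.

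No member of the respiratory chain passed the test for a difference between midbrain and striatum when both cohorts were fitted together. The joint fit tested 71 of the 80 members, of which 0 were called at an adjusted p under 0.05 by limma, against 1.06% of all 14053 genes tested (149 genes). At an unadjusted p under 0.05 limma counted 7 members, 6 of them higher and 1 lower in the midbrain, which is 9.86% of the members against 14.6% of all genes. edgeR's quasi-likelihood test and DESeq2 also called 0 members, with 6 and 7 at an unadjusted p under 0.05. The lowest adjusted p of a member was 0.257, that of mt-Co1.

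Nuclear and mitochondrial members differed in how closely the replicates matched. The 64 nuclear members tested had joint fold changes between -0.34 and 0.69 with a median of 0.14, against 0.044 for all genes, and 50 of the 64 values were positive. Their standard errors ranged from 0.12 to 0.53 with a median of 0.16, and for 56 of them the 95% interval of the fold change lay within 1 log2 unit of 0. The 7 mitochondrial members tested ranged from -0.82 to 1.58 with a median of -0.27, their standard errors ran from 0.49 to 0.77, and none had an interval within 1 log2 unit of 0. For the mitochondrial genes a regional difference of that size was therefore not resolved by these libraries.

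**Figure D1:**
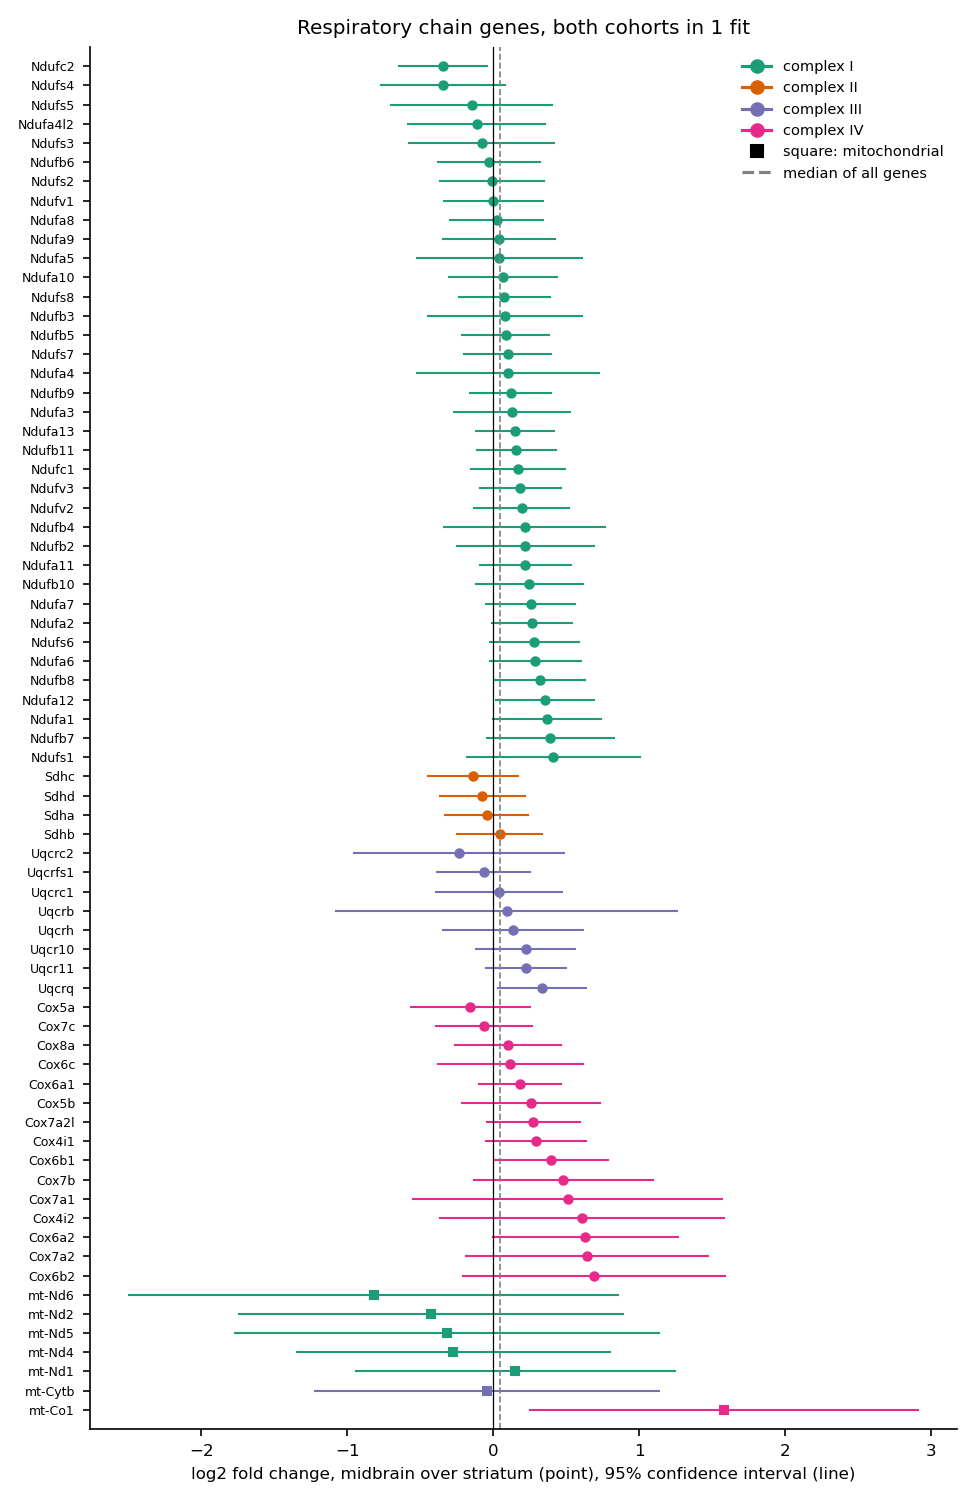
Log2 fold change, midbrain over striatum, of the 71 members tested in the joint fit, with the gene on the vertical axis; points are estimates, lines 95% confidence intervals, circles nuclear and squares mitochondrial genes, colours the complexes. The 64 nuclear estimates lie between -0.34 and 0.69, while the 7 mitochondrial genes at the bottom have intervals that all reach past 1 log2 unit.

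The spread between the 2 libraries of a group shows the same contrast. The median absolute log2 difference between them, over the nuclear members, was 0.12 in the pilot midbrain, 0.17 in the pilot striatum, 0.33 in the second midbrain and 0.27 in the second striatum. Over the 7 mitochondrial members it was 0.53, 2.18, 1.75 and 0.78 in the same order. Among the 3135 genes whose mean counts lay in the range of the mitochondrial members it was 0.13, 0.24, 0.26 and 0.31, narrower than that of the mitochondrial members in each of the 4 groups.

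As a share of all counts, the 13 mitochondrial members took 0.137% and 0.173% in the pilot midbrain and 0.187% and 0.0443% in the pilot striatum. In the second cohort they took 0.0908% and 0.229% in the midbrain and 0.394% and 0.216% in the striatum. The regions overlapped in both cohorts. Striatum library 2 of the pilot cohort was lowest and striatum library 1 of the second cohort highest. The 67 nuclear members took a far steadier 1.04% and 0.978% in the pilot midbrain, 0.960% and 0.974% in the pilot striatum, 1.23% and 1.03% in the second midbrain and 1.05% and 0.941% in the second striatum.

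**Figure D2:**
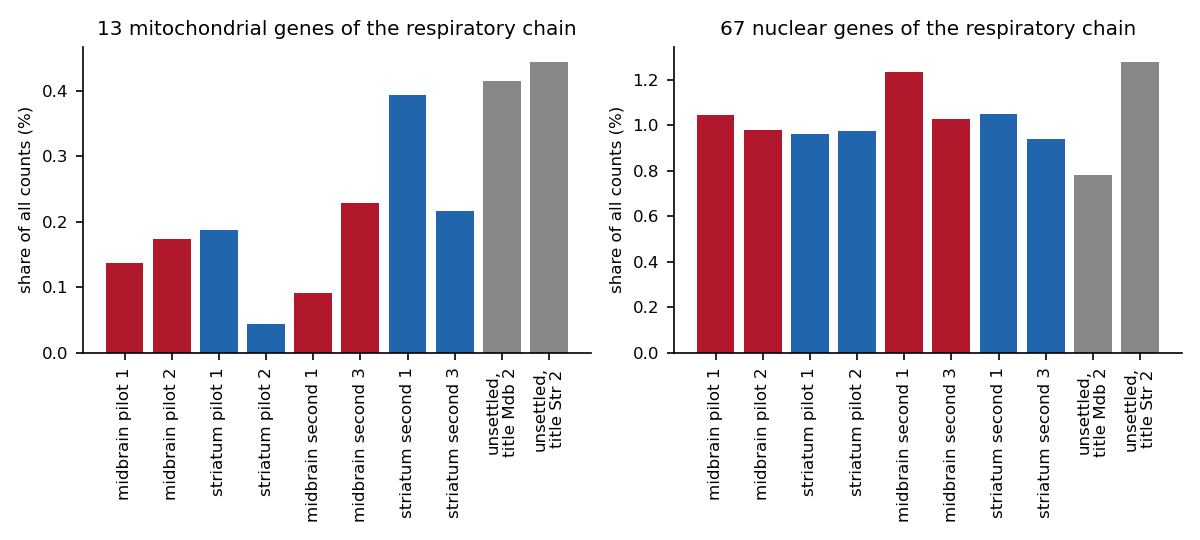
Share of all counts of a library (%) taken by the 13 mitochondrial members (left) and the 67 nuclear members (right), 1 bar for each of 10 libraries; red is midbrain, blue striatum and grey the 2 libraries of unsettled region. The mitochondrial share runs from 0.0443% to 0.445%, the nuclear share from 0.783% to 1.28%.

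Of the 13 mitochondrial genes, 6 had at most 9 counts in any assigned library: mt-Co2, mt-Co3, mt-Atp6, mt-Atp8 and mt-Nd4l, at 0 in all 8, and mt-Nd3. They encode core subunits of cytochrome c oxidase (mt-Co2, mt-Co3), ATP synthase (mt-Atp6, mt-Atp8) and complex I (mt-Nd3, mt-Nd4l). The counting had left out reads that map to more than a single place, and these genes have near copies in the nuclear genome. With each transcript cut into overlapping windows of 50 bases, 100% of the windows of mt-Co2, 99.9% of mt-Co3, 99.5% of mt-Atp6, 98.8% of mt-Nd4l and 98.0% of mt-Nd3 were also found in another annotated gene. mt-Atp8 had 0 counts and no window shared with an annotated gene. The search covered annotated transcripts only, so a copy of mt-Atp8 outside annotated genes would have been missed. On the mitochondrial genome mt-Atp8 (chrM:7766-7969) starts between mt-Co2 and mt-Atp6. Why it had 0 counts was not tested. On chromosome 1 (GRCm38) the copies of mt-Nd3 (Gm28438, chr1:24612775-24613119), mt-Co3 (Gm28437, chr1:24613189-24613971), mt-Atp6 (Gm10925, chr1:24613974-24614651) and mt-Co2 (Gm28661, chr1:24614885-24615565) lie side by side on the minus strand. The copies of mt-Co2, mt-Co3 and mt-Atp6 matched over every aligned base (681, 783 and 678 bases), and the copy of mt-Nd3 differed at 1 of 345 bases, T3C, with positions counted from the start of the mitochondrial gene and its base given first. These sequences are shown because a read that lies wholly inside an identical stretch maps to both places. The 3′ ends of mt-Co2 and Gm28661 and the first bases of mt-Nd3 and Gm28438 read as follows, with the differing base in capitals:
mt-Co2: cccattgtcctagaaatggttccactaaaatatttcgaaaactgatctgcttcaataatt
Gm28661: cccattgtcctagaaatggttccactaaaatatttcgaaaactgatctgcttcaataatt
mt-Nd3: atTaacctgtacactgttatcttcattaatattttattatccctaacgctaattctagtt
Gm28438: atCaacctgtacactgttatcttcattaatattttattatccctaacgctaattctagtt

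mt-Co1, the catalytic core subunit of cytochrome c oxidase, was intermediate: 51.1% of its windows were shared, and 100% of those in its last 400 bases, the end that 3′ sequencing reads most. Its copy Gm29216 (chr1:24615706-24616197, minus strand) matched 486 of 492 aligned bases, and its 6 differences cluster at the start of the aligned stretch, which begins at base 1054 of mt-Co1 and is printed with the differing bases in capitals:
mt-Co1: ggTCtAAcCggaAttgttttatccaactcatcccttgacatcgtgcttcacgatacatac
Gm29216: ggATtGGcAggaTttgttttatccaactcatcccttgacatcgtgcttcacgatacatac

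The other 6 mitochondrial genes had 3′ ends that were wholly or mostly free of shared windows. mt-Nd4 shared 62.2% of its windows, all within its first 876 bases and none in its last 400. mt-Nd1, mt-Nd6 and mt-Cytb shared none, mt-Nd2 shared 8.19% and mt-Nd5 7.61%. In the last 400 bases, mt-Nd2 shared 22.8% and mt-Nd5 5.98%. The last bases of mt-Cytb, shown as an end with no annotated copy, are:
mt-Cytb: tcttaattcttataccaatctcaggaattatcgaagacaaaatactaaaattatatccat

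**Figure D3:**
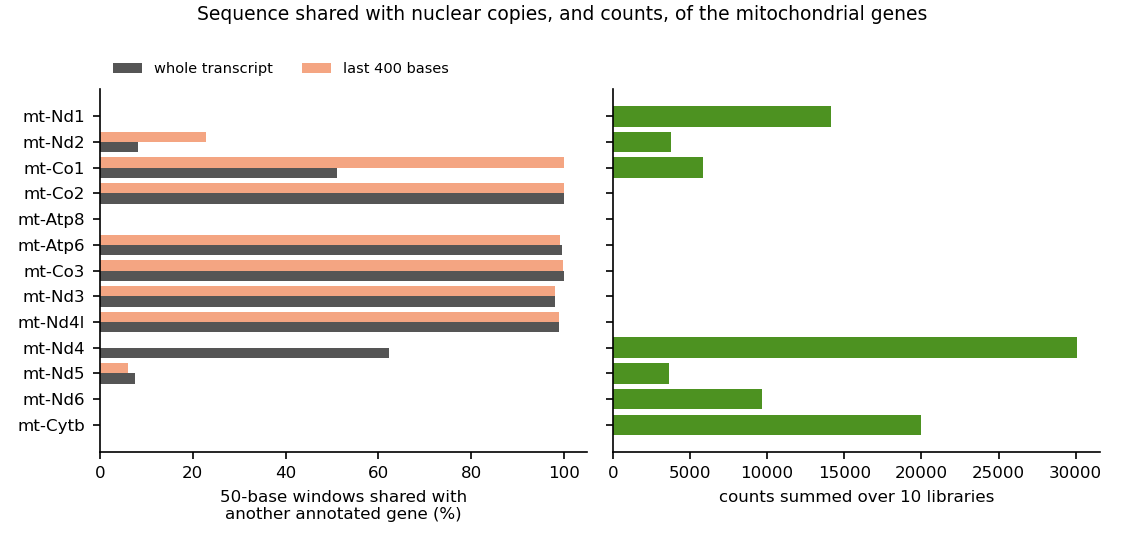
For each of the 13 mitochondrial genes, in their order along the mitochondrial genome, the percent of 50-base windows shared with another annotated gene (left; grey for the whole transcript, orange for its last 400 bases) and the counts summed over 10 libraries (right). The 5 genes over 97% shared, and mt-Atp8, have next to no counts, while mt-Nd4, whose last 400 bases share 0%, has the most.

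mt-Cytb, the cytochrome b subunit at the core of complex III, had fold changes of opposite sign in the 2 cohorts. In the pilot cohort it was at 337 and 306 CPM in the midbrain and 319 and 64.8 CPM in the striatum. In the second cohort it was at 249 and 519 CPM in the midbrain and 1038 and 723 CPM in the striatum. The pilot regions overlapped, with striatum library 2 far below the other 3 libraries, whereas in the second cohort both midbrain libraries lay below both striatum libraries. The fold change was 1.13 in the pilot cohort (adjusted p = 0.483) and -1.31 (SE 0.34, 95% interval -2.06 to -0.56, adjusted p = 0.172) in the second cohort. That passed the limit of an unadjusted p under 0.01 used within a cohort, where mt-Cytb and mt-Nd2 were the 2 members called, both lower in the midbrain, against 0.593% of all 13486 genes called lower. Leaving out any 1 library of the second cohort, the members called numbered 1 without midbrain library 1 (mt-Cytb), 16 without midbrain library 3, 1 without striatum library 1 (Cox6b2) and 0 without striatum library 3. Over all genes the share called in either direction was 3.47% with every library, and 3.24%, 10.3%, 6.14% and 2.91% in those 4 fits, so the rise to 16 came with a rise over all genes. edgeR's test and DESeq2 each called mt-Cytb alone.

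mt-Nd2, a membrane-arm subunit of complex I, was at 38.9 and 63.3 CPM in the midbrain and 65.8 and 14.8 CPM in the striatum in the pilot cohort. In the second cohort it was at 29.4 and 99.9 CPM in the midbrain and 215 and 106 CPM in the striatum. It was the second member called there, with both midbrain libraries below both striatum libraries, by only a small gap between midbrain library 3 and striatum library 3, and a fold change of -1.64 (SE 0.51, 95% interval -2.76 to -0.51, adjusted p = 0.273). Its pilot fold change was 0.74 (adjusted p = 0.606).

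The remaining mitochondrial complex I genes showed the same signs without a call. mt-Nd1 was at 200.3 and 232 CPM in pilot midbrain, 172 and 52.7 in pilot striatum, 168 and 532 in second-cohort midbrain and 716 and 416 in second-cohort striatum. Its fold change was 1.17 in the pilot cohort (adjusted p = 0.409) and -0.94 in the second (adjusted p = 0.510), and the pilot regions did not overlap. mt-Nd4, the most counted mitochondrial member, was at 476 and 685 CPM in the midbrain and 755 and 227 CPM in the striatum of the pilot cohort, and 216 and 735 CPM in the midbrain and 1284 and 502 CPM in the striatum of the second cohort. Its values overlapped in both cohorts, with fold changes of 0.41 and -1.10. mt-Nd5 was at 27.1 and 50.2 CPM in pilot midbrain, 44.4 and 9.44 in pilot striatum, 26.9 and 142 in second-cohort midbrain and 194 and 123 in second-cohort striatum. It overlapped in both cohorts too, with fold changes of 0.94 and -1.43.

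mt-Nd6 is the only protein gene on the other strand of the mitochondrial genome. It was at 127 and 237 CPM in the midbrain and 282 and 59.1 CPM in the striatum of the pilot cohort, and 18.9 and 178 CPM in the midbrain and 439 and 168 CPM in the striatum of the second cohort. Library 1 of the second midbrain was lowest of all 8, and the second-cohort fold change was -2.38 (SE 0.78, 95% interval -4.10 to -0.65, adjusted p = 0.299), just outside the limit. Because counting ignored strand, reads from mt-Nd6 and from transcripts that run antisense to it cannot be told apart.

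mt-Co1 was the one mitochondrial gene with midbrain above striatum in both cohorts without overlap, as were 9.05% of all genes. It was at 113 and 130.4 CPM in the midbrain and 104 and 7.81 CPM in the striatum in the pilot cohort, and at 287 and 162 CPM in the midbrain and 144 and 92.5 CPM in the striatum in the second. The fold change was 1.58 (SE 0.61, 95% interval 0.25 to 2.91, adjusted p = 0.257) in the joint fit, and it was 2.26 and 0.79 in the pilot and second cohorts. Leaving out 1 library at a time gave joint fold changes from 0.53 to 2.05. Within the mitochondrial genes its place was not fixed: the ratio of mt-Co1 to mt-Cytb counts was 0.337 and 0.426 in the pilot midbrain, 0.326 and 0.121 in the pilot striatum, 1.15 and 0.313 in the second midbrain and 0.139 and 0.128 in the second striatum.

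**Figure D4:**
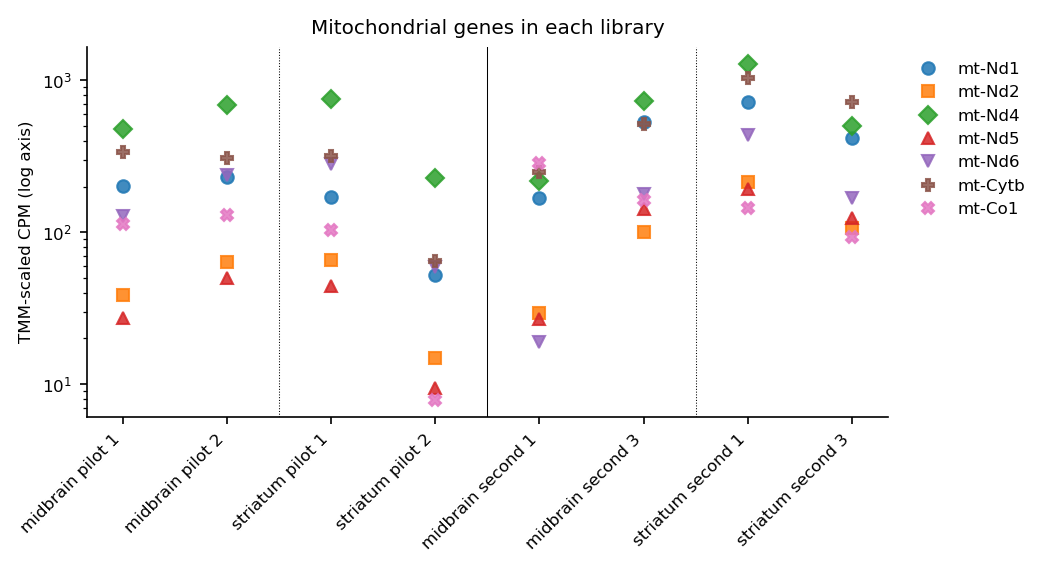
TMM-scaled CPM (log axis) of the 7 mitochondrial genes with enough counts, in each of the 8 assigned libraries, with dotted lines between regions and a solid line between cohorts. Libraries of 1 group lie far apart: pilot striatum library 2 and second midbrain library 1 are low for most genes, and mt-Co1 alone is high in the latter.

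In the pilot cohort all 8 mitochondrial members tested had a positive fold change, with a median of 0.84. In the second cohort 6 of 7 had a negative one, with a median of -1.31. The medians over all genes were 0.018 and -0.00094. Pilot striatum library 2 was the lowest pilot library for each of the 7 members tested in both cohorts. Against pilot striatum library 1, both pilot midbrain libraries were lower for mt-Nd2, mt-Nd4 and mt-Nd6. They were higher for mt-Nd1 and mt-Co1 and lay on either side for mt-Nd5 and mt-Cytb. The pilot fold change of the remaining member, mt-Nd3, was 0.028 on at most 9 counts a library. The test of the difference between cohorts, the interaction of region and cohort, called 0 members and 0 genes (0%) at an adjusted p under 0.05 by limma. At an unadjusted p under 0.05 it counted 7 members, 5 of them mitochondrial, against 5.51% of all genes, and edgeR's test called 0 with 4 at that level. The smallest p was that of mt-Cytb, with an interaction of -2.49 (SE 0.81, 95% interval -4.26 to -0.71, adjusted p = 0.860). Leaving out 1 library at a time moved the joint median of the mitochondrial members between -0.80 and 0.37. The summed mitochondrial members were at 1321 and 1705 CPM in the pilot midbrain and 1743 and 437 CPM in the pilot striatum. In the second cohort they were at 995 and 2369 CPM in the midbrain and 4030 and 2131 CPM in the striatum. The summed astrocyte markers shared their lowest and highest library, while the order of the other libraries differed. They were at 872 and 1014 CPM in the pilot midbrain, 919 and 362 CPM in the pilot striatum, 689 and 669 CPM in the second midbrain and 1772 and 555 CPM in the second striatum, lowest and highest in the same 2 libraries as the summed mitochondrial members (437 and 4030 CPM). The 8 oligodendrocyte markers summed to 6482 CPM in the first of these and 11233 CPM in the other, within a range of 5732 to 11558 CPM, and the 12 neuron markers to no more than 46.5 CPM anywhere. The part of such RNA in the mitochondrial values was not tested.

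**Figure D5:**
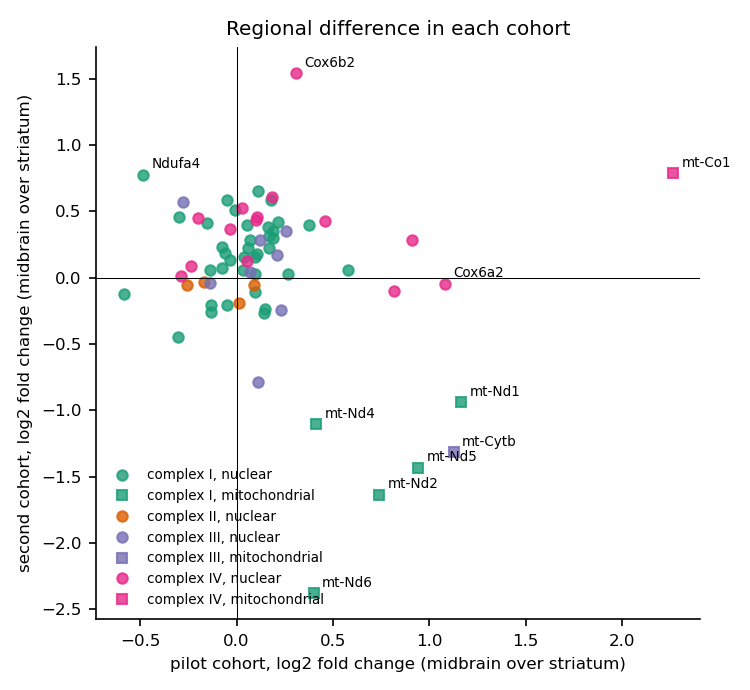
Log2 fold change, midbrain over striatum, of each member in the pilot cohort (horizontal) and in the second cohort (vertical); circles are nuclear and squares mitochondrial genes, coloured by complex. Nuclear genes gather near 0 on both axes, 6 mitochondrial genes lie at the lower right, positive in the pilot and negative in the second cohort, and mt-Co1 lies at the upper right.

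Complex I, the NADH dehydrogenase and largest complex of the chain, has 37 nuclear members here. All were tested, 0 were called, and 30 of 37 had a positive joint fold change, with a median of 0.13 and a range from -0.34 to 0.41. For 36 of the 37 the 95% interval lay within 1 log2 unit of 0. In the pilot cohort 22 of 37 and in the second cohort 29 of 37 were positive.

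The nuclear complex I members with the smallest p were Ndufc2, Ndufa12 and Ndufb8, all accessory subunits outside the catalytic core. Ndufc2 was at 309.7 and 301 CPM in pilot midbrain, 308 and 435 in pilot striatum, 275 and 299.5 in second-cohort midbrain and 374 and 404 in second-cohort striatum. Its pilot regions overlapped, both second-cohort midbrain libraries lay below both striatum libraries, and the joint fold change was -0.34 (SE 0.14, 95% interval -0.65 to -0.038, adjusted p = 0.284). Ndufa12 was at 63.0 and 62.9 CPM in the midbrain and 53.3 and 54.4 CPM in the striatum of the pilot cohort, and 71.2 and 59.4 CPM in the midbrain and 43.5 and 41.1 CPM in the striatum of the second cohort. The midbrain was above the striatum without overlap in both cohorts, and the joint fold change was 0.36 (SE 0.15, 95% interval 0.019 to 0.69, adjusted p = 0.313), while 32.6% of the windows in its last 400 bases are shared with another annotated gene. Ndufb8 was also higher without overlap in both cohorts, at 104 and 106 CPM in pilot midbrain, 84.1 and 91.6 in pilot striatum, 138 and 112 in second-cohort midbrain and 99.3 and 78.8 in second-cohort striatum. Its joint fold change was 0.32 (SE 0.14, 95% interval 0.014 to 0.63, adjusted p = 0.320).

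Ndufs4, an accessory subunit whose loss causes Leigh-like disease in mice, was the next member with a lower midbrain level. It was at 34.0 and 40.1 CPM in the midbrain and 40.6 and 67.8 CPM in the striatum of the pilot cohort, and 74.8 and 87.4 CPM in the midbrain and 88.1 and 83.9 CPM in the striatum of the second cohort. The pilot midbrain lay below the pilot striatum, the second-cohort values overlapped, and the joint fold change was -0.34 (adjusted p = 0.452). Ndufa13, the nuclear complex I member with the highest mean CPM, was at 535 and 514 CPM in pilot midbrain, 441 and 516 in pilot striatum, 479 and 500.0 in second-cohort midbrain and 471 and 389 in second-cohort striatum. It had a joint fold change of 0.15 and a 95% interval of -0.11 to 0.42.

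Ndufa4 was once assigned to complex I, is grouped with it here by its symbol, and is now known as a subunit of complex IV. It was at 29.5 and 26.4 CPM in the midbrain and 39.7 and 36.5 CPM in the striatum in the pilot cohort, midbrain below striatum without overlap. In the second cohort it was at 114 and 56.9 CPM in the midbrain and 47.9 and 42.8 CPM in the striatum, midbrain above striatum without overlap. The fold changes were -0.48 (adjusted p = 0.459) and 0.78 (adjusted p = 0.525), and the interaction was 1.22 (SE 0.49, 95% interval 0.14 to 2.30, adjusted p = 0.860). Its paralogue Ndufa4l2, a hypoxia-induced gene, was lower per length, at a mean of 15.3 CPM per kilobase of exon against 35.6 for Ndufa4, and had a joint fold change of -0.11.

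Complex II, succinate dehydrogenase, also a tricarboxylic acid cycle enzyme and the one complex with no mitochondrially encoded subunit, varied least. Its 4 members had joint fold changes between -0.14 and 0.046, a median of -0.058, and intervals that all lay within 0.5 log2 units of 0. Sdhc, a membrane anchor with the highest mean CPM of the complex, was at 239 and 220.5 CPM in the midbrain and 225 and 315 CPM in the striatum of the pilot cohort, and 282 and 266 CPM in the midbrain and 275 and 291 CPM in the striatum of the second cohort. Sdhb, the iron-sulphur subunit, was at 261 and 248 CPM in pilot midbrain, 222 and 243 in pilot striatum, 289.8 and 241 in second-cohort midbrain and 299 and 236 in second-cohort striatum. Both overlapped between regions in the second cohort. The joint fold change was -0.14 for Sdhc (95% interval -0.44 to 0.17), 0.046 for Sdhb (-0.25 to 0.34) and -0.073 for the other anchor Sdhd (-0.36 to 0.22). Summed over the complex, the level was 673 ± 37.4 CPM in pilot midbrain, 693 ± 79.2 in pilot striatum, 757 ± 43.0 in second-cohort midbrain and 786 ± 26.0 in second-cohort striatum (mean ± SD, n = 2 each).

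Complex III, ubiquinol-cytochrome c reductase, has 8 nuclear members, all tested, with 0 called, 6 of 8 positive and a median joint fold change of 0.11. Uqcrq, a small subunit bound to cytochrome b and the member with the highest mean CPM, was at 302 and 285 CPM in the midbrain and 233 and 243 CPM in the striatum of the pilot cohort, and 395 and 284 CPM in the midbrain and 245 and 283 CPM in the striatum of the second cohort. The midbrain was above the striatum without overlap in both cohorts, and the joint fold change was 0.33 (SE 0.14, 95% interval 0.033 to 0.64, adjusted p = 0.290). Uqcr11, another small subunit, was likewise higher without overlap in both cohorts, at 195 and 169.8 CPM in pilot midbrain, 145 and 161 in pilot striatum, 193 and 196 in second-cohort midbrain and 166 and 179.8 in second-cohort striatum. Its joint fold change was 0.22 (adjusted p = 0.445).

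The members of complex III with a lower midbrain estimate were Uqcrc2, a core subunit, and Uqcrfs1, the Rieske iron-sulphur protein. Uqcrc2 was at 15.4 and 21.0 CPM in the midbrain and 27.4 and 10.7 CPM in the striatum of the pilot cohort, and 21.2 and 22.2 CPM in the midbrain and 41.0 and 27.4 CPM in the striatum of the second cohort. It had a joint fold change of -0.23 (adjusted p = 0.785), and 50% of the windows in its last 400 bases are shared with the neighbouring gene Pdzd9. Uqcrfs1 was at 171 and 193 CPM in pilot midbrain, 197 and 191 in pilot striatum, 265 and 183 in second-cohort midbrain and 233 and 212 in second-cohort striatum. It had a joint fold change of -0.065 and an interval of -0.38 to 0.25. Uqcrb had 0 to 13 counts in the 8 assigned libraries, shares 43.4% of its windows with other annotated genes, and its interval of -1.07 to 1.26 leaves a change of up to 1 log2 unit unresolved.

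Complex IV, cytochrome c oxidase, has 18 nuclear members, several in tissue-specific isoforms. Of these, 15 were tested, 0 were called, and 13 of 15 had a positive joint fold change with a median of 0.29. Cox7b2, Cox8b and Cox8c were too low to test, with at most 8 counts in any library. Cox4i1, the ubiquitous isoform of a regulatory subunit and the nuclear member with the highest mean CPM, was at 833 and 767 CPM in the midbrain and 727 and 716 CPM in the striatum of the pilot cohort, and 1267 and 979 CPM in the midbrain and 996 and 639 CPM in the striatum of the second cohort. The regions did not overlap in the pilot cohort but did in the second, and the joint fold change was 0.29 (SE 0.16, 95% interval -0.048 to 0.64, adjusted p = 0.419). Cox6b1, which bridges the monomers of the enzyme, was at 319 and 272 CPM in pilot midbrain, 221 and 288 in pilot striatum, 452 and 287 in second-cohort midbrain and 254 and 207 in second-cohort striatum. Its pilot regions overlapped, its second-cohort regions did not, and the joint fold change was 0.40 (SE 0.18, 95% interval 0.0059 to 0.79, adjusted p = 0.335).

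Cox6a2, the heart and muscle isoform of subunit VIa, was the one member called in the pilot cohort at an unadjusted p under 0.01, against 2.09% of all 14972 genes called higher in the midbrain. It was at 14.5 and 12.9 CPM in the midbrain and 6.80 and 5.83 CPM in the striatum there, with both midbrain libraries above both striatum libraries, and the fold change was 1.08 (SE 0.32, 95% interval 0.36 to 1.81, adjusted p = 0.365). In the second cohort it was at 20.3 and 15.3 CPM in the midbrain and 18.1 and 17.1 CPM in the striatum, the regions overlapped, and the fold change was -0.046 (adjusted p = 0.981). The interaction was -1.17 (SE 0.49, 95% interval -2.24 to -0.099, adjusted p = 0.860). The pilot call was lost without either midbrain library and without striatum library 2, and held without striatum library 1. The members called then numbered 0 without either midbrain library, 19 without striatum library 1, and 2 without striatum library 2 (mt-Nd4 and mt-Nd6, both lower in the midbrain). Over all genes the share called in either direction was 2.64% with every library, 0.749% and 1.35% without midbrain libraries 1 and 2, 16.8% without striatum library 1 and 4.22% without striatum library 2. The rise to 19 members thus came with a rise over all genes. DESeq2 called 0 members in the pilot cohort, with 1 at an unadjusted p under 0.05.

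The isoform pairs showed the widely expressed form in excess in every case. Mean levels per kilobase of exon, a nominal scale for 3′ sequencing, were 558 CPM for Cox4i1 and 2.13 for Cox4i2, 884 for Cox6a1 and 20.4 for Cox6a2, and 406 for Cox6b1 and 5.42 for the testis isoform Cox6b2. They were 136 for Cox7a2 and 7.67 for the muscle isoform Cox7a1, and 489 for Cox8a and 0.841 for Cox8b. Cox6b2 was at 8.02 and 6.11 CPM in the midbrain and 5.29 and 5.59 CPM in the striatum of the pilot cohort, and 8.68 and 8.56 CPM in the midbrain and 5.80 and 0 CPM in the striatum of the second cohort. The last of these libraries had 0 of 575709 counts, which allows up to 5.21 CPM, and its joint fold change was 0.69 (adjusted p = 0.475). Joint fold changes of the low isoforms Cox4i2 and Cox7a1 were 0.61 (SE 0.45) and 0.51 (SE 0.48), and those of Cox6a1 and Cox8a were 0.18 (SE 0.13) and 0.10 (SE 0.17).

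Cox7a2, a subunit of complex IV, was at 83.1 and 77.5 CPM in pilot midbrain, 81.5 and 23.4 in pilot striatum, 312 and 122 in second-cohort midbrain and 144 and 187 in second-cohort striatum. Pilot striatum library 2 was lowest and second midbrain library 1 highest, the regions overlapped in both cohorts, and the joint fold change was 0.64 (SE 0.38, 95% interval -0.18 to 1.47, adjusted p = 0.470). Cox5a and Cox7c were the 2 complex IV members with a negative joint estimate. Cox5a was at 73.7 and 72.8 CPM in the midbrain and 69.0 and 107 CPM in the striatum of the pilot cohort, and 66.3 and 59.7 CPM in the midbrain and 71.4 and 42.8 CPM in the striatum of the second cohort. It had a fold change of -0.16 (SE 0.19). Cox7c was at 125 and 137 CPM in pilot midbrain, 131 and 171 in pilot striatum, 198 and 157 in second-cohort midbrain and 159 and 173 in second-cohort striatum. It had a fold change of -0.061 (SE 0.15). Of the windows in their last 400 bases, 52.7% (Cox5a) and 59.7% (Cox7c) are shared with other annotated genes, as are over 30% for 9 nuclear members in all.

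Without regard to size, the midbrain lay above the striatum without overlap for 27 of the 64 nuclear members in the pilot cohort (42.2%, against 23.1% of all genes) and for 22 in the second (34.4%, against 23.5%). It lay below for 3 (4.69%, against 19.8%) and 4 (6.25%, against 17.2%). In both cohorts alike it lay above for 11 members (17.2%, against 9.05% of all genes) and below for 0 (against 6.03%). The 11 were Ndufa12, Ndufa2, Ndufa6, Ndufb8, Ndufb11, Ndufs6, Ndufv3, Uqcrq, Uqcr11, Cox6b2 and Cox7a2l. The joint fold change of Cox6b2 apart, these differences were small, between 0.16 for Ndufb11 and 0.36 for Ndufa12, and none was called. Genes with symbols of cytoplasmic ribosomal proteins (Rps, Rpl or Rplp and a number) are given for comparison. They were chosen by symbol alone, so the list also holds other genes, such as the kinase Rps6kb1. Their median joint fold change was 0.37, against 0.044 for all genes. Of the 91 tested, 82 were positive, 3 were called higher and 0 lower, against 1.06% of all genes called.

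Genes that work beside the respiratory chain gave 0 calls in the joint fit as well, where 1.06% of all genes were called. Of the 18 nuclear subunits of ATP synthase, 17 had a positive fold change with a median of 0.17, and Atp5d, the delta subunit of the central stalk, had the smallest p. It was at 479 and 453 CPM in the midbrain and 386 and 367 CPM in the striatum of the pilot cohort, and 382 and 339 CPM in the midbrain and 332 and 238 CPM in the striatum of the second cohort. Its values did not overlap between regions in either cohort, and the fold change was 0.30 (SE 0.13, 95% interval 0.018 to 0.59, adjusted p = 0.312). Of the 10 electron carriers and subunits outside the symbol rule, 3 were positive, with a median of -0.17. By limma, 4 had an unadjusted p under 0.05, which is 40% against 14.6% of all genes. Of these, 2 were higher in the midbrain, Gpd2 (fold change 0.72) and Etfb (0.46), and 2 lower, Dhodh (-0.52) and Cyc1. Cyc1, the cytochrome c1 subunit of complex III, was at 159 and 171 CPM in pilot midbrain, 194 and 200.4 in pilot striatum, 179.8 and 251 in second-cohort midbrain and 298 and 359.7 in second-cohort striatum. It was lower in the midbrain without overlap in both cohorts, with a fold change of -0.42 (SE 0.15, 95% interval -0.74 to -0.089, adjusted p = 0.226). The 41 assembly factors tested divided into 18 positive and 23 negative values with a median of -0.063. Foxred1, a complex I assembly factor, had a fold change of -0.55 (SE 0.17, 95% interval -0.93 to -0.17, adjusted p = 0.168).

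Mitochondrial transcription and its nuclear regulators were lower in estimate, with 6 of 24 positive and a median of -0.24. By limma, 3 of the 24 had an unadjusted p under 0.05, which is 12.5% against 14.6% of all genes. They were Mterf3, a regulator of mitochondrial transcription and ribosomes, Tefm, the elongation factor of the mitochondrial polymerase, and Ssbp1, which binds single-strand mitochondrial DNA. Mterf3 was at 13.8 and 15.1 CPM in the midbrain and 20.2 and 24.7 CPM in the striatum of the pilot cohort, and 16.3 and 34.5 CPM in the midbrain and 41.7 and 44.5 CPM in the striatum of the second cohort. Tefm was at 14.5 and 14.9 CPM in pilot midbrain, 18.5 and 23.0 in pilot striatum, 17.8 and 18.0 in second-cohort midbrain and 23.6 and 42.8 in second-cohort striatum. Ssbp1 was at 36.5 and 41.4 CPM in pilot midbrain and 47.2 and 63.4 in pilot striatum. In the second cohort it was at 69.7 and 54.6 CPM in the midbrain and 71.4 and 83.9 CPM in the striatum. All 3 lay lower in the midbrain without overlap in both cohorts, as did 6.03% of all genes. The fold changes were -0.74 (adjusted p = 0.194) for Mterf3, -0.55 (0.256) for Tefm and -0.41 (0.293) for Ssbp1.

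Of the 14 tricarboxylic acid cycle enzymes, 6 were positive, with a median of -0.030. Suclg2, the GTP-forming subunit of succinyl-CoA synthetase, had the lowest p of these lists. It was at 8.19 and 7.01 CPM in the midbrain and 12.1 and 16.0 CPM in the striatum of the pilot cohort, and 5.30 and 8.33 CPM in the midbrain and 14.9 and 13.7 CPM in the striatum of the second cohort. It was lower in the midbrain without overlap in both cohorts, with a fold change of -0.99 (SE 0.26, 95% interval -1.56 to -0.41, adjusted p = 0.104). Of the 18 glycolysis genes tested 9 were positive, with a median of -0.017. Slc16a3, a lactate exporter, was at 71.2 and 54.0 CPM in pilot midbrain, 43.5 and 34.3 in pilot striatum, 65.5 and 59.2 in second-cohort midbrain and 50.03 and 41.1 in second-cohort striatum. It was higher in the midbrain without overlap in both cohorts, with a fold change of 0.58 (SE 0.18, 95% interval 0.20 to 0.96, adjusted p = 0.149). Ldhb, the lactate dehydrogenase subunit of oxidative tissues, had a fold change of -0.58 (adjusted p = 0.226).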

How the data were processed

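Poly-A RNA of CD11b+ cells was sequenced by MARS-seq adapted to bulk samples. The authors aligned reads to GRCm38 with STAR 2.5.3a, assigned them to genes of Gencode M17 by featureCounts 1.6.0, and deposited raw counts, without strand and without multi-mapped reads per the file headers. The methods mention no molecular identifiers, so counts were taken as reads, and floors cover counting error only. Counts were scaled with TMM factors (edgeR 4.0.16) and fitted over all genes by voom and limma 3.58.1 in R 4.3.3, tested on simulated data. Genes with under 6 counts in more than 50% of libraries were left out. The joint fit had cohort as a covariate (Benjamini-Hochberg adjusted p under 0.05), and each cohort alone used an unadjusted p under 0.01, as the methods do. Alternatives were DESeq2 1.42.0, the quasi-likelihood test of edgeR, other scalings, filters, weights, thinning, a replicate block and leaving out libraries. Named genes were all 13 mitochondrial genes, and per complex the 2 nuclear members with the smallest joint p in each direction, the member with the highest CPM, and the isoform pairs. From the other lists, genes were named for a low joint p after their values were seen. Cox7a2l and the genes without overlap were chosen likewise. Members and lists were chosen with earlier results of these data known. Shared windows of 50 bases were sought in Gencode M21 transcripts. Of the 53715 gene identifiers, 53620 had a symbol.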

Additional observations from a re-analysis of the deposited data

Results flagged for a closer look

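In the 2 libraries of unsettled region, which entered no comparison, the mitochondrial members took 0.415% (title Mdb 2) and 0.445% (title Str 2) of the counts, above the highest share of the 8 assigned libraries, 0.394%. They were flagged as a signal in libraries the comparisons left out.

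Ndufb1-ps carries an Nduf symbol but is not annotated as protein coding, so the rule left it out. It had 22 to 474 counts a library, the highest in library 1 of the second midbrain, and was flagged as signal in a gene outside the comparisons.

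Gm29216, the chromosome 1 copy of mt-Co1, had 280 counts over the 10 libraries, against 7 for Gm28661, 8 for Gm10925, 10 for Gm28437 and 0 for Gm28438. It was flagged as signal in a gene outside the comparisons.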

How the results depend on the processing

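The joint fit called 0 members under each of the 11 other settings and without each library in turn. Over all genes these fits called from 0 to 554, with 0 in 3 of the 19: the unsettled libraries by title, without pilot midbrain library 1, and without second striatum library 1. The share of all genes called in either direction is given in brackets. Within the pilot cohort the count of 1 (2.64%) became 0 with DESeq2 (2.56%) and with libraries thinned to the smallest (2.3%). It became 2 with sample quality weights (3.05%) and 3 with no filter (3.42%). Within the second cohort the count of 2 (3.47%) became 1 with edgeR's test (3.99%), DESeq2 (3.29%) and no filter (2.05%). It was also 1 with at least 10 counts in every library (2.9%), and 3 with library size only (3.47%). It became 1 with the unsettled libraries in the region of their titles (0.996%) and 5 with them in the other region (5.22%). The count ran from 0 to 16 with 1 library left out. The counts given above with 1 library of a cohort left out rest on a lone library, assumed to vary like the other group. With every library kept, the count of members that differed between cohorts stayed at 0, as it did over all genes. This held for edgeR's test, TMM without mitochondrial genes and a replicate block. The cause of these changes was not tested.

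Fitted with a replicate block, the second cohort gave 8 members, 2 of them higher in the midbrain, the pilot cohort 1 and the joint fit 0. Over all genes the block raised the share called in the second cohort from 3.47% to 7.33%. The deviations of same-numbered libraries from their group means correlated at r = -0.034 in the pilot and 0.078 in the second cohort. With 2 libraries per group each cohort gives a single such value, which cannot tell whether they share a mouse. The labels do not say which libraries share a mouse, so the numbers were not taken as pairs.

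The median of nuclear complex III was -0.062 with the unsettled libraries in the region of their titles and ran from -0.036 to 0.17 with 1 library left out. No other median moved by more than the spread between replicates. Some uncalled estimates changed sign. Placing the unsettled libraries by title gave -0.014 for Sdhb, 0.0026 for Sdhd, -0.030 for Cox6a2, -0.095 for Cox8a and -0.18 for Ndufa4, and placing them the other way 0.067 for Cox7c and 0.057 for Ndufa4l2. Thinning gave 0.099 for Cox5a, 0.023 for Cox7c and 0.079 for Ndufa4l2, quality weights -0.11 for Ndufa4, library size alone -0.0018 for Sdhb, and at least 10 counts 0.0075 for mt-Cytb. With 1 library left out, estimates ran from -0.42 to 0.64 for mt-Nd1, -1.11 to 0.35 for mt-Nd2, -0.80 to 0.18 for mt-Nd4, -0.97 to 0.43 for mt-Nd5 and -0.76 to 0.37 for mt-Cytb. They ran from -0.017 to 0.099 for Sdhb, -0.70 to 0.024 for Uqcrc2, -0.29 to 0.042 for Cox5a, -0.18 to 0.057 for Cox7c, -0.041 to 0.20 for Cox8a, -0.22 to 0.24 for Ndufa4 and -0.32 to 0.033 for Ndufa4l2.

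Depth limits the low isoforms: in the shallowest library 3 counts are 5.21 CPM.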
